A study of Homo sapiens with 7 samples.

Results

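The regions described here are the transfer RNA (tRNA) genes of the human genome in lists of chromatin immunoprecipitation sequencing (ChIP-seq) peaks for RNA polymerase II (Pol II) phosphorylated at threonine 4 of its tail (pThr4). The members are every RefSeq gene of the class tRNA on chromosomes 1 to 22 and X of GRCh38, each taken with 500 bp on either side, and they number 429 of 58419 genes of all classes. A gene counted as having a peak when at least 1 bp of this region lay in a listed peak. Of the 429 genes, 123 lay within 5 kb of a protein-coding gene (near) and 306 lay farther away (distant). The genes were 70 to 108 bp long, with a median of 73 bp, so a region was 1073 bp at the median. The genes fell into 263 loci when regions within 5 kb of each other were joined, and the largest locus held 23 genes.

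The samples came from HEK293, an established human embryonic kidney line. Before precipitation with the pThr4 antibody 6D7, nuclear lysate was incubated either with wild-type SCP1 (active SCP1), a phosphatase of serine 5 in the same tail, or with its catalytically inactive variant D96A (inactive SCP1), to uncover pThr4 sites hidden by a neighbouring phosphoserine 5. Each arm had 3 libraries labelled as biological replicates of this 1 line, and the control precipitation, made with a nonspecific antibody, was not used here. The labels name no genetic change in any group, and the phosphatase acted on the lysate and not in living cells.

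RNA polymerase III (Pol III) transcribes tRNA genes from promoter elements inside the gene, the A box and the B box, which are bound by the factor TFIIIC. Pol III has no tail of heptad repeats like that of Pol II, so the epitope of the antibody belongs to Pol II, and peaks over tRNA genes bear on how specific the peaks are for Pol II. Pol II has been mapped close to many active tRNA genes, and many tRNA genes lie beside or inside protein-coding genes.

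The following tRNA gene sequences show these internal elements in genes with and without a peak. They were read 5′ to 3′ from RefSeq promoter windows of GRCh38.p14, which held at least 60 bases of 17 members. The B box in capitals is the run GGTTCNANTCC, where N is any base, and the A box, the capitals nearer the 5′ end, is shown where its consensus was found. A B box run fixed the strand in 9 of the 17. TRR-ACG2-1 (chr3:45688999-45689071, minus strand, 325 bp from SACM1L), TRT-AGT1-3 (chr19:33177057-33177128, plus strand, 72 of its 74 bases held) and TRL-AAG2-4 (chr16:22297159-22297221, plus strand, 63 of its 82 bases held) had a peak in active replicate 3 and in no other list. TRL-AAG2-2 (chr6:28943622-28943703, minus strand), TRP-TGG3-2 (chr14:20684016-20684087, plus strand, 90 bp from ANG) and TRH-GTG1-9 (chr15:45201151-45201222, plus strand, 35 bp from SHF) had none in any list.
TRR-ACG2-1: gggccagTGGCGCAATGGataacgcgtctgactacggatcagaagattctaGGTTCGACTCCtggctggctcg
TRT-AGT1-3: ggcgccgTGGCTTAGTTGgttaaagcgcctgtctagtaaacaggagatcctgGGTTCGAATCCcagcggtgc
TRL-AAG2-4: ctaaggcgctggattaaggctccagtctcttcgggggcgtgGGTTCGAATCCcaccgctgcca
TRL-AAG2-2: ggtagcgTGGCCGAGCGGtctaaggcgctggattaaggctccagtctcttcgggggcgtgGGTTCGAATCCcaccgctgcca
TRP-TGG3-2: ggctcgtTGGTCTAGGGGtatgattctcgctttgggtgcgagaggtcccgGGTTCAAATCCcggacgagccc
TRH-GTG1-9: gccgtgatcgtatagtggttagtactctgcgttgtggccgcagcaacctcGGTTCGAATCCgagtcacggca

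The B box run lay, on either strand, in 103 (0.295%) of all 34961 promoter windows of 300 bases, and in 10 of the 29 windows that overlapped a tRNA gene. The stretch held of TRL-AAG2-4 is contained whole in TRL-AAG2-2, although a peak lay over the first and not over the second. TRP-TGG3-2 is identical to TRP-TGG3-5 on chromosome 16, and TRH-GTG1-9 is identical to TRH-GTG1-3 on chromosome 1, and none of these 4 genes had a peak. The tRNA genes, at 70 to 108 bp, are shorter than a full 150-bp read, so a peak over a copy rests on the sequence around it as well. Whether that sequence also matches between these copies was not examined. How the submitters treated reads that match several places is not given in the sources used here.

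The 3 active lists held 12625, 6680 and 36892 peaks on chromosomes 1 to 22 and X, and the 3 inactive lists held 2466, 1163 and 2699. The lists give no read counts, so sequencing depth is unknown. The weakest peak admitted had a −log10 p of 3.50, 3.79 and 3.08 in active replicates 1, 2 and 3, and of 4.23, 4.60 and 4.20 in the inactive replicates. The peak names of replicate 3 in both arms carry another label than those of replicates 1 and 2, so values of the comparisons without replicate 3 are given beside the pooled ones.

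Peaks at tRNA genes were few in every library. In active replicate 1, 15 of the 429 genes (3.50%) had a peak, in active replicate 2 there were 9 (2.10%) and in active replicate 3 there were 34 (7.93%). In the inactive replicates there were 6 (1.40%), 4 (0.932%) and 6 (1.40%). Every active library stood above every inactive one. The arms stood apart in the same way in windows of 1073 bp at protein-coding gene starts. These had a peak in 6.45%, 4.12% and 17.1% of cases in the active lists and in 2.09%, 0.7497% and 2.30% in the inactive lists. Over tRNA genes, the order of the libraries within each arm followed the number of peaks in the list, with equal counts in inactive replicates 1 and 3. The mean share in the active arm was 4.51% ± 3.04 (SD, n = 3), and in the inactive arm it was 1.24% ± 0.269 (SD, n = 3). The difference of 3.26 percentage points had p = 0.1 in a two-sided exact permutation test, the smallest value that 3 against 3 libraries allow, and 0.15 after Benjamini-Hochberg adjustment over the 9 tests made. Without replicate 3 of both arms the difference was 1.63 points. It was 0.0777 points with every list cut to the 1163 peaks of highest −log10 p, the length of the shortest list (equal length), 0.699 points with peaks of a −log10 p of at least 6 (common p), and 1.24 points with a −log10 q of at least 2.

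Over the 6 lists together, 38 tRNA genes at 28 loci had a peak in at least 1 list and 391 had none. Of the genes with a peak, 22 were near and 16 distant, which is 17.9% of the near and 5.23% of the distant genes. Among all RefSeq gene regions, most of them longer, 29.2% had a peak in at least 1 list. Among tiles of 1073 bp laid end to end along the same chromosomes the share was 5.76% of near and 1.00% of distant tiles. Of the 38 genes, 17 had a peak in active replicate 3 alone, and 0 had one in an inactive list alone.

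In the inactive arm all tRNA genes with a peak were near genes. In the active libraries 8 (6.50%), 5 (4.07%) and 20 (16.3%) of the 123 near genes had a peak, and in the inactive libraries 6 (4.88%), 4 (3.25%) and 6 (4.88%). The arms overlapped, because active replicate 2 lay below inactive replicates 1 and 3. The means were 8.94% ± 6.45 (SD, n = 3) and 4.34% ± 0.939 (SD, n = 3), and the difference of 4.61 points had p = 0.3 in the exact permutation test (adjusted p = 0.338). It was 1.22 points without replicate 3 of both arms, 0 points with lists of equal length and 1.36 points at the common p.

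With the 500-bp flank, distant genes had peaks in the active arm alone. Of the 306 distant genes 7 (2.29%), 4 (1.31%) and 14 (4.58%) had a peak in active replicates 1, 2 and 3, against 0 in each inactive library. The arms did not overlap. Nor did they overlap in distant tiles, at 0.153%, 0.0665% and 0.908% in the active lists against 0.0248%, 0.0110% and 0.0248% in the inactive lists. For the distant genes the mean was 2.72% ± 1.68 (SD, n = 3) with active SCP1 (p = 0.1, exact permutation test, adjusted p = 0.15). Without replicate 3 of both arms the mean difference was 1.80 points. With lists of equal length, 0.327%, 0% and 0% of the distant genes kept a peak in the active libraries. The common p left 0.327%, 0% and 0.980%, and the difference between the arms was 0.109 points with equal length and 0.436 points at the common p. With flanks of 1000 bp in place of 500 bp, 0.327% of the distant genes had a peak in inactive replicate 2. Whether the gap between near and distant genes itself differed between the arms was also tested, and the difference of 1.88 points had p = 0.9 in the exact permutation test, with 9 tests in the family and an adjusted p of 0.9. It turned to −0.578 points without replicate 3 of both arms, −0.849 without active replicate 3 and −0.109 with lists of equal length.

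**Figure D1:**
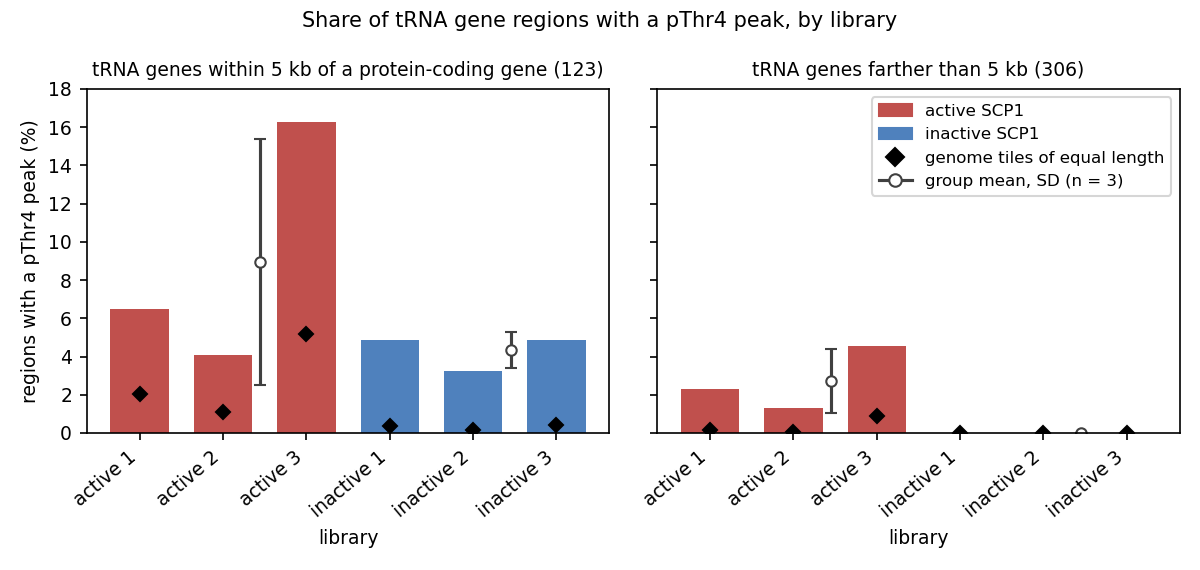
Share of tRNA gene regions with a pThr4 peak (%, bars) in each of the 3 active (red) and 3 inactive (blue) SCP1 libraries, for 123 near genes (left) and 306 distant genes (right), with the share of genome tiles of the same length (black diamonds) and the group mean and SD (open circles, n = 3). The near bars run from 3.25% to 16.3%, and the distant bars reach 4.58% in active replicate 3 and are 0 in all inactive libraries.

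In every library the near genes had a larger share with a peak than the distant genes. The gap was 4.22, 2.76 and 11.7 points in the active libraries and 4.88, 3.25 and 4.88 points in the inactive ones, with a mean of 5.28 ± 3.25 points (SD, n = 6). The two-sided exact sign-flip permutation test over the 6 libraries gave p = 0.03125, the smallest value it allows, and 0.141 after adjustment, so the gap did not pass at an adjusted 0.05. Over replicates 1 and 2 alone the gap was 3.78 points.

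The near genes were also set against near tiles, those within 5 kb of a protein-coding gene. Near tiles had a peak in 2.02%, 1.08% and 5.15% of cases in the active lists and in 0.379%, 0.175% and 0.406% in the inactive lists. The near tRNA genes stood at 3.22, 3.77 and 3.15 times these shares in the active lists and at 12.9, 18.5 and 12.01 times in the inactive lists. The difference averaged 5.10 ± 3.03 points (SD, n = 6, exact sign-flip permutation test p = 0.03125, adjusted p = 0.141), and 3.76 points over replicates 1 and 2. Near tiles lay mostly inside protein-coding genes (1175030 of 1294204), whereas 43 of the 123 near tRNA genes did. With the tiles inside and those 1 to 5000 bp outside weighted by the numbers of tRNA genes in each class, an alternative chosen after seeing the data, the tile shares became 3.95%, 2.49% and 8.63% in the active lists and 1.12%, 0.539% and 1.16% in the inactive lists. The difference was then 3.66 ± 2.11 points (SD, n = 6, exact sign-flip permutation test p = 0.03125, not adjusted). In the inactive lists these shares rest on 4 to 6 genes at few loci, of which 4 genes at 2 loci had a peak in all 6 lists.

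Distant tRNA genes were set against distant tiles in the same way. Distant tiles had a peak in 0.153%, 0.0665% and 0.908% of cases in the active lists, so the distant tRNA genes stood at 14.9, 19.7 and 5.04 times the tile share there. Of the 1529496 distant tiles, 891220 lay over 100 kb from a protein-coding gene, against 61 of the 306 distant tRNA genes. Tiles closer to protein-coding genes had larger shares, and the distant tiles were not weighted by distance, so these ratios also carry that difference in distance. In the inactive lists the tile share was 0.0248%, 0.0110% and 0.0248% and no distant tRNA gene had a peak, so tRNA genes were above tiles in the 3 active libraries and below them in the 3 inactive ones. With 306 genes, shares of tiles this small would put a peak on less than 1 gene. The mean difference over the 6 libraries was 1.16 ± 1.51 points (SD, n = 6), with p = 0.25 in the exact sign-flip permutation test and 0.321 after adjustment. It was 0.835 points over replicates 1 and 2, 0.663 points without active replicate 3, 0.0417 points with lists of equal length and 0.204 points at the common p.

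Starts of protein-coding genes served as the reference for Pol II. Windows of 1073 bp centred on 19074 protein-coding gene starts (the transcription start site, TSS) had a peak in 6.45%, 4.12% and 17.1% of cases in the active lists and in 2.09%, 0.7497% and 2.30% in the inactive lists. The share over all tRNA genes was 0.542, 0.510 and 0.464 times the TSS share in the active lists and 0.669, 1.24 and 0.608 times in the inactive lists. Near tRNA genes alone stood at 1.01, 0.988 and 0.953 times the TSS share in the active lists. In the inactive lists they stood at 2.33, 4.34 and 2.12 times, which rest on 6, 4 and 6 genes under 3, 2 and 3 peaks. The gene starts were not limited to expressed genes. The difference between all tRNA genes and TSS windows averaged −2.59 ± 3.39 points (SD, n = 6, exact sign-flip permutation test p = 0.0625, adjusted p = 0.141), and inactive replicate 2 alone had the higher share at tRNA genes. It was −1.37 points over replicates 1 and 2, −1.28 without active replicate 3, −1.43 without chromosome 6, −0.562 with lists of equal length and −0.625 at the common p.

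By distance to the nearest protein-coding gene, the share of tRNA genes with a peak was highest inside such genes in all 6 libraries. In every library 3 of the inside genes with a peak lay in CTC1 and shared 1 peak, so they are not independent. No other inside gene had a peak in active replicate 2 or inactive replicate 2. The 43 tRNA genes inside a protein-coding gene had a peak in 13.95%, 6.98% and 25.6% of cases in the active lists and in 9.30%, 6.98% and 11.6% in the inactive lists, where tiles inside protein-coding genes had 1.70%, 0.846% and 4.58%, and 0.258%, 0.115% and 0.281%. The 80 genes from 1 to 5000 bp outside had 2.50%, 2.50% and 11.2% in the active lists, and the tiles at that distance had 5.16%, 3.38% and 10.8%. In the inactive lists these genes had 2.50%, 1.25% and 1.25%, against 1.58%, 0.766% and 1.64% of the tiles. In this class the tRNA genes were therefore below the tiles in active replicates 1 and 2 and in inactive replicate 3, and above them in the other 3 libraries. The 104 genes between 5 and 20 kb had 4.81%, 2.88% and 6.73% in the active lists, against 0.605%, 0.274% and 2.77% of the tiles. The 141 genes between 20 and 100 kb had 1.42%, 0.709% and 4.26% there, against 0.142%, 0.0544% and 1.13% of the tiles. Of the 61 genes over 100 kb away, 1 had a peak, in active replicate 3. These classes were compared without a test.

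**Figure D2:**
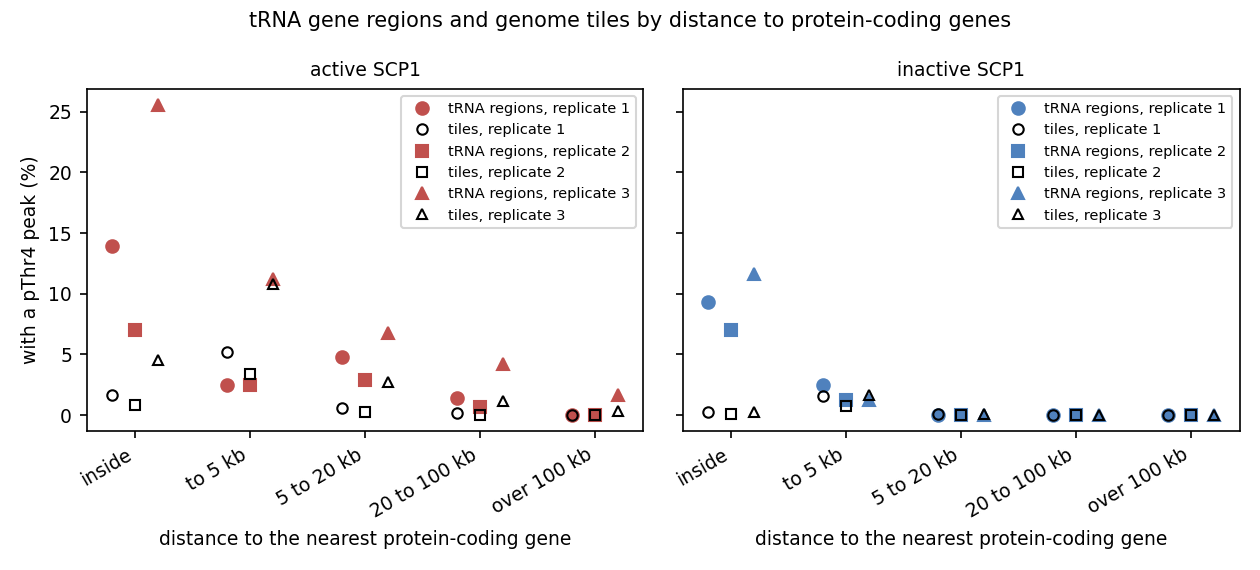
Share with a pThr4 peak (%) by distance to the nearest protein-coding gene, for tRNA gene regions (filled) and genome tiles (open), with 1 symbol shape per replicate, in the active (left) and inactive (right) libraries. Inside protein-coding genes the tRNA regions lie above the tiles in all 6 libraries (25.6% against 4.58% in active replicate 3), and beyond 5 kb the tRNA regions are at 0 in the inactive libraries. In every library 3 of the inside tRNA genes with a peak share 1 peak.

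The place of a near tRNA gene relative to a gene start or end was read from the RefSeq boundaries and the GENCODE strand. Of 49 tRNA genes within 1000 bp of a TSS, 7 (14.3%) had a peak in at least 1 list, against 17.9% of all near genes. Per list the counts were 1, 1 and 6 in the active arm and 0, 0 and 2 in the inactive arm. Of 5 within 1000 bp of a transcription end site (TES), 4 had a peak in at least 1 list. Here the counts per list were 1, 1 and 4 (active) and 3, 1 and 1 (inactive). TRL-TAG1-1 and TRR-TCT2-1, both among these 4 genes, shared 1 peak in each list where they had one. Of 29 elsewhere inside a protein-coding gene 8 (27.6%) had a peak in at least 1 list, and of the remaining 40 near genes 3 (7.50%) had one. These places were not tested against each other. Near genes were also split by whether the nearest protein-coding gene carried another peak that did not touch the tRNA region. In active replicate 3, 79 neighbours did and 18 (22.8%) of their tRNA genes had a peak, against 2 of 44 (4.55%) for the others. In active replicate 1 the shares were 5 of 50 (10.0%) and 3 of 73 (4.11%), and in active replicate 2 they were 2 of 29 (6.90%) and 3 of 94 (3.19%). In the inactive lists the shares were 0 of 14, 0 of 10 and 2 of 15 (13.3%) where the neighbour had another peak, and 6 of 109 (5.50%), 4 of 113 (3.54%) and 4 of 108 (3.70%) where it had none. The first share was thus the larger in the 3 active lists and in inactive replicate 3.

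In the active lists, peaks covered the tRNA genes themselves more often than positions 2000 bp away. The centre of a distant tRNA gene lay in a peak in 1.96%, 0.654% and 3.27% of cases in the 3 active lists, and positions 2000 bp to either side did so in 0.327%, 0.163% and 1.31%. For near genes the centre was covered in 6.50%, 3.25% and 13.01% of cases and positions 2000 bp away in 0.813%, 0% and 3.66%. In the inactive lists the centre of near genes was covered in 4.07%, 2.44% and 2.44%, and positions 2000 bp away in 0.407%, 0% and 0%. The centre of distant genes was covered in none of these lists, and positions 2000 bp away in 0.163% in each, the reverse order. In active replicate 2 the share at the centre of distant genes (0.654%) was reached again 9100 bp away. In active replicate 3 the centre was not the most covered position, since 13.8% of near genes were covered at 8500 bp and 3.59% of distant genes at 6700 bp on the other side. Over both sides the coverage in this library was 6.10% and 7.32% for near genes at 5000 and 10000 bp, and 0.817% and 2.29% for distant genes.

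**Figure D3:**
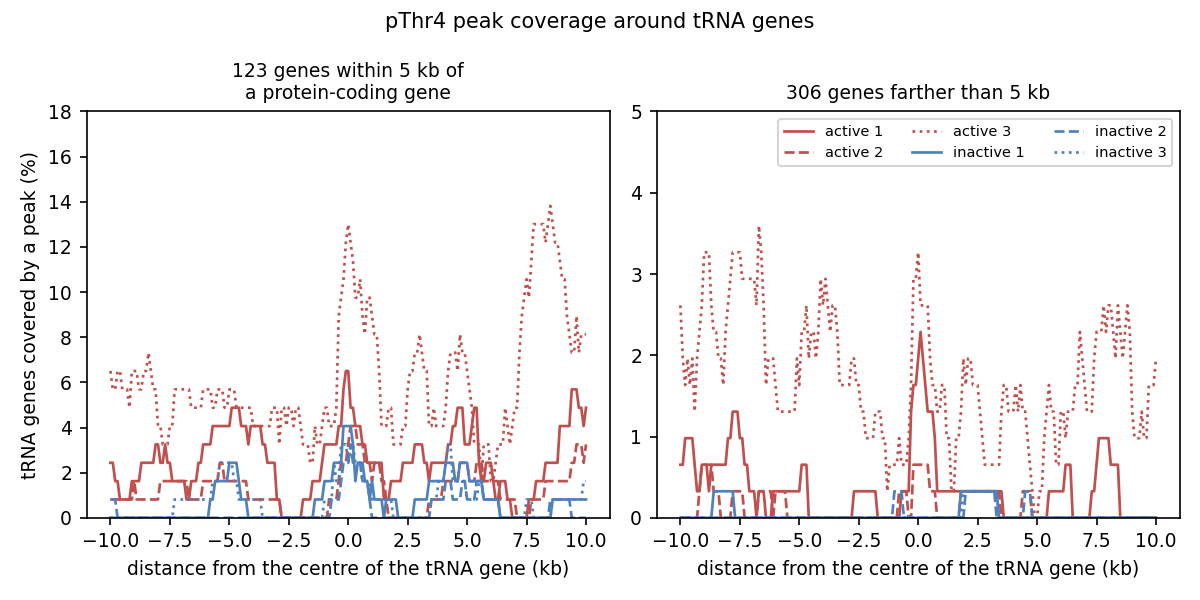
Share of tRNA genes (%) whose position at a given distance from the gene centre (kb, rising coordinate) lay in a pThr4 peak, for near (left) and distant (right) genes, with 1 line per library. At distance 0 the active lines stand at 6.50%, 3.25% and 13.01% (near) and at 1.96%, 0.654% and 3.27% (distant), and active replicate 3 has further maxima away from the genes.

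The median fold enrichment of peaks over tRNA genes was above that of the other peaks in 5 of the 6 lists, by small amounts. Fold enrichment in the deposited lists is the ratio of the library over its background, and it has no common scale across libraries. The median fold enrichment of the 11, 6 and 26 separate peaks over tRNA regions was 3.40, 3.60 and 3.20 in the active lists, against 3.39, 3.53 and 3.11 for the other peaks. In the inactive lists 3, 2 and 3 peaks had medians of 4.18, 3.70 and 4.07, against 3.85, 3.89 and 3.84. The log2 ratio of the medians averaged 0.05 ± 0.05 (SD, n = 5 libraries with at least 3 such peaks, exact sign-flip permutation test p = 0.0625, adjusted p = 0.141). It was 0.05 over replicates 1 and 2 and 0.09 with lists of equal length. Inactive replicate 2, left out of this test with 2 such peaks, was the list with the lower median over tRNA regions. With 5 libraries the sign-flip p cannot go under 0.0625. The median −log10 p was 4.80, 4.93 and 4.09 for peaks over tRNA regions in the active lists, against 4.47, 4.78 and 3.83 for the others.

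A few loci accounted for the peaks seen in every list. The tRNA genes with a peak in all 6 lists were 4 of 429 (0.932%), at 2 loci and all near, against 1.60% of all RefSeq gene regions, 0.129% of near tiles and 0.00582% of distant tiles. TRT-AGT1-2 (chr17:8226235-8226308), TRS-AGA2-6 (chr17:8226610-8226691) and TRI-AAT4-1 (chr17:8226991-8227064), which encode threonine, serine and isoleucine tRNAs, lie inside CTC1, a gene of the CST telomere complex. In each list 1 peak lay over the locus and covered TRS-AGA2-6 and TRI-AAT4-1 whole. Its fold enrichment was 4.61, 4.60 and 5.47 in the active lists and 4.39, 3.70 and 5.38 in the inactive lists, with a −log10 p of 8.95, 8.80 and 11.9, and of 7.58, 6.25 and 10.4. The peak ranked within the top 4.27%, 6.02% and 0.754% of the active lists by fold enrichment and within the top 18.4%, 67.2% and 4.93% of the inactive lists. It was 2656, 1747 and 2432 bp wide in the active lists and 1688, 908 and 902 bp wide in the inactive lists, so every active peak was wider than every inactive one. TRT-AGT1-2 was covered in part in inactive replicate 2 and reached only in its flank in inactive replicate 3. The 3 genes share this peak and are not independent observations.

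**Figure D4:**
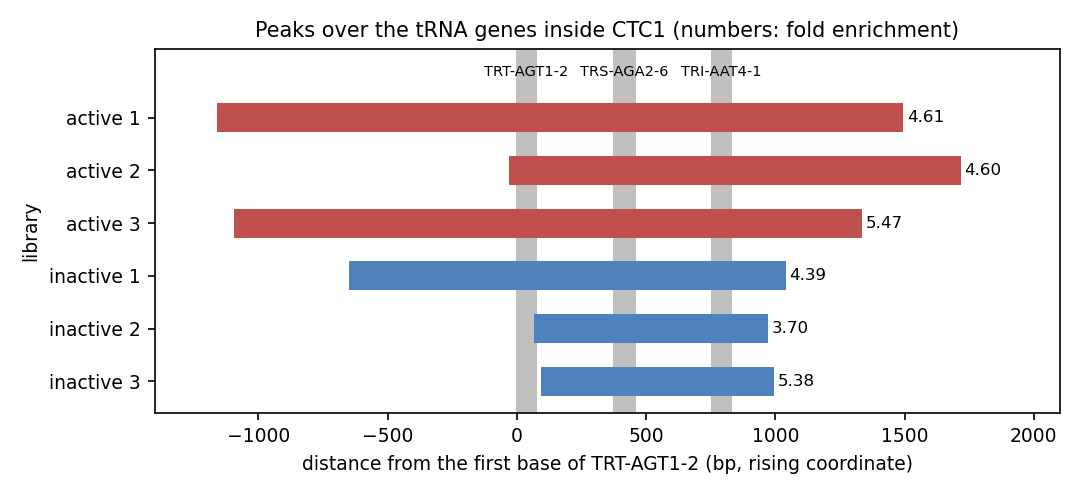
Extent of the pThr4 peak over the tRNA genes inside CTC1 in each active (red) and inactive (blue) library, by distance from the first base of TRT-AGT1-2 (bp), with the tRNA genes as grey bands and the fold enrichment at the right of each bar. All 6 peaks reach TRS-AGA2-6 and TRI-AAT4-1, and their widths run from 902 to 2656 bp.

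The fourth gene with a peak in all 6 lists was TRC-GCA8-1 (chr14:72962971-72963042), a cysteine tRNA gene 873 bp from the end of DCAF4, which encodes a substrate receptor of a ubiquitin ligase. Its peak had a fold enrichment of 4.25, 3.50 and 3.83 in the active lists and of 4.18, 3.69 and 4.07 in the inactive lists. The ranges of the arms overlapped, and the peak covered the whole gene in all 6 lists. Its width was 4236, 973 and 3791 bp in the active lists and 362, 1098 and 2220 bp in the inactive lists.

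The genes with a peak in all 3 active and in no inactive list were 3 of 429 (0.699%) at 2 loci, and all 3 were distant (0.980% of the distant genes). The same pattern was found in 3.07% of all RefSeq gene regions, in 0.379% of near tiles and in 0.0163% of distant tiles. TRV-CAC1-1 (chr1:161399700-161399772), a valine tRNA gene 31824 bp from CFAP126, a cilium gene, had a fold enrichment of 3.84, 3.70 and 4.13 in active replicates 1, 2 and 3. Its −log10 p was 5.68, 5.27 and 6.41, and the peaks were 421, 285 and 610 bp wide. The peaks lay 31592 to 31613 bp from the protein-coding gene. TRD-GTC2-10 (chr12:124939647-124939718) and TRA-TGC4-1 (chr12:124939966-124940037), an aspartate and an alanine tRNA gene, shared 1 peak in each active list. That peak had a fold enrichment of 3.20, 3.39 and 3.87, a −log10 p of 4.25, 4.59 and 6.08, and a width of 751, 681 and 1718 bp. It lay 6436, 6403 and 5469 bp from DHX37, the nearest protein-coding gene and an RNA helicase gene. With lists of equal length, and also at the common p, the count was 0 in place of 3. In active replicates 1 and 2 the −log10 p at these 3 genes was between 4.25 and 5.68, and the weakest peaks admitted to the inactive lists had 4.20 to 4.60.

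A further 6 genes, 3 near and 3 distant, had a peak in 2 active and in no inactive list, and without active replicate 2 the count of genes in all active and no inactive lists was 9 in place of 3. Among the distant ones, TRL-CAA1-1 (chr6:28896223-28896328), a leucine tRNA gene 6674 bp from TRIM27, had a fold enrichment of 5.39 in active replicate 1, in a peak of 3863 bp, and of 2.89 in active replicate 3. The peak in active replicate 1 was centred 1592 bp from the gene and came within 3204 bp of TRIM27, and that in active replicate 3 within 5947 bp. TRX-CAT1-7 and TRG-GCC2-3, an initiator methionine and a glycine tRNA gene in the histone gene region of chromosome 6, shared peaks of 3.06 and 3.13 in the same lists. The nearest protein-coding genes were H2BC17 at 8602 bp and OR2B2 at 8207 bp. The next distant genes by the naming rule had 1 peak each. The valine tRNA gene at chr1:145157157-145157229 had 4.26 in active replicate 3, TRG-CCC1-1 had 4.19 in active replicate 2, TRK-CTT8-1 had 3.27 in active replicate 3 and TRC-GCA16-1 had 3.21 in active replicate 1. TRG-CCC1-1 and TRK-CTT8-1 were reached only in their flanks.

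Other genes are named here because their values stood out once seen. TRM-CAT1-1 on chromosome 8, inside TBC1D31, had the highest fold enrichment of any tRNA gene, 5.66 in active replicate 1 and 5.55 in active replicate 3, within the top 1.17% and 0.683% of those lists, and no peak in the other 4 lists. TRL-AAG2-4 lay 188 bp from the TSS of POLR3E, which encodes a subunit of Pol III, and had a peak of 3.84 in active replicate 3. The 4 genes with a peak in some but not all lists of both arms lay at 2 loci. TRL-TAG1-1 and TRR-TCT2-1 at HES7 shared a peak of 4.46 in active replicate 3 and of 3.82 in inactive replicate 1. TRY-GTA2-1 and TRA-AGC8-1 at AGBL5 shared a peak of 3.53 in active replicate 3, and in inactive replicate 3 a peak of 3.77 lay in the flanks and touched neither gene.

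**Figure D5:**
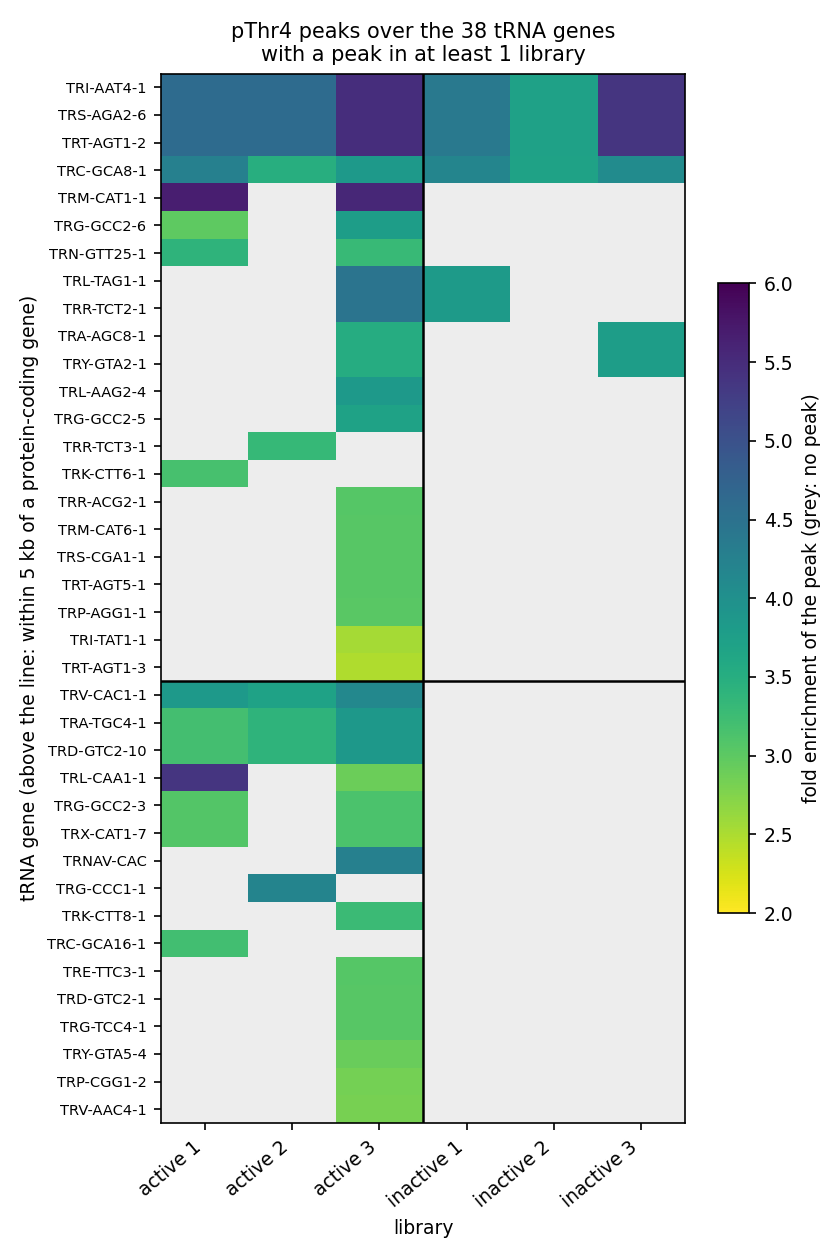
Fold enrichment of the pThr4 peak (colour, grey for no peak) over each of the 38 tRNA genes with a peak in at least 1 list (rows, near genes above the line) in the 6 libraries (columns). The top 4 rows are filled in all 6 libraries, the distant genes are empty in the 3 inactive libraries, and 17 genes are filled in active replicate 3 alone.

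Among the isotypes, glycine tRNA genes had the most members with a peak in at least 1 list, 5 of 30, followed by arginine (3 of 26), leucine (3 of 32), threonine (3 of 20) and valine (3 of 30). By share the order differed, with methionine at 2 of 11 and aspartate and tyrosine at 2 of 13 each. A peak shared by genes of different isotypes, such as that in CTC1, counts for each of them. Phenylalanine (11 genes), histidine (9), glutamine (19), tryptophan (7) and selenocysteine (2) tRNA genes had none. Over all 429 genes the share with a peak in at least 1 list was 8.86%, and these small isotypes were not tested against it. Glycine genes were near in 13 of the 30 cases. By chromosome, 17 had 8 of 33 genes with a peak, with 28 of the 33 near, 1 had 7 of 85, with 17 near, and 16 had 6 of 26, with 14 near. Chromosome 6, which holds the largest number of tRNA genes, had 4 of 154, and 9 of its 154 genes were near. Genes with another tRNA gene within 1000 bp (131) had a peak in 5.34%, 3.82% and 12.2% of cases in the active lists and 3.82%, 2.29% and 3.82% in the inactive lists. The 298 others had 2.68%, 1.34% and 6.04%, and 0.336% in each inactive list. A peak between close neighbours counts for each of them, so these shares are not independent of the grouping. Of the 306 distant genes, 85 lay within 5 kb of a lncRNA gene and 3 of them (3.53%) had a peak in at least 1 list, against 13 of 221 (5.88%) of the rest.

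Other small RNA genes of Pol III and Pol II were followed as lists of named genes. Of 37 other Pol III genes, 2, 2 and 3 had a peak in the active lists and 1, 0 and 0 in the inactive lists. The genes with a peak were 4, and all were among the 11 near genes. None of the 26 distant ones had a peak, including 14 of the 17 genes for 5S ribosomal RNA, and the other 3 of those, which were near, had none either. Whether a peak can be called over genes with many copies depends on how multiply mapped reads were treated, which is not given. The lack of a peak at the genes for 5S ribosomal RNA therefore does not show a lack of signal. RMRP, the RNA of the endonuclease RNase MRP, 273 bp from CCDC107, had a fold enrichment of 4.56, 4.66 and 4.22 in the active lists and of 4.15 in inactive replicate 1. RN7SK, the 7SK RNA that holds the elongation factor P-TEFb inactive, had 5.51 and 4.88 in active replicates 1 and 2. In active replicate 3, VTRNA1-1, a vault RNA gene, had 3.76 and the U6 gene RNU6-9 had 3.29.

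Of 19 small nuclear RNA genes of Pol II, 2, 0 and 2 had a peak in the active lists and 1, 0 and 1 in the inactive lists, all of them among the 9 near genes. RNU7-1, which encodes the U7 RNA of histone mRNA processing and lies inside C12orf57, had 3.92 and 4.99 in active replicates 1 and 3 and 3.57 and 3.97 in inactive replicates 1 and 3. RNU4ATAC had 2.89 in active replicate 1, and RNU12, an RNA of the minor spliceosome like the former, had 4.19 in active replicate 3. The 10 distant ones, among them the U1 genes RNU1-1 to RNU1-4, had no peak in any list. The limit on multiply mapped reads applies to the copies of U1 too. Distant genes of both lists were thus at 0 of 26 and 0 of 10, and the lists were not tested against each other. Among distant tiles 1.00% had a peak in at least 1 list, and among distant tRNA genes 5.23% had one. Lists of 26 and 10 genes are too short to tell 0 from such shares.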

How the data were processed

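The samples were 6 pThr4 ChIP-seq libraries of HEK293 cells, 3 with active and 3 with inactive SCP1, sequenced as paired-end 150-bp reads. The authors deposited 1 broad-peak list per library, so peaks were called per sample. Each list gives the position of a peak with a fold enrichment (a ratio over background), a −log10 p-value and a −log10 q-value, all as deposited by the authors. The submitters' processing notes name hg38, FastQC, cutadapt 4.6 and Bowtie2 2.5.2. The peak caller, its control and the treatment of multiply mapped reads are not given in the sources used here. The lists hold no read counts, so depth is unknown, and precision rests on 3 replicates per group. A peak is admitted by a q-value set within its own list (lowest −log10 q-value just above 1 in each), so longer lists admit weaker peaks.

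Peak ends beyond GRCh37 on 7 chromosomes placed the lists on GRCh38. Genes came from RefSeq (GRCh38.p14). Of 443 tRNA entries, 14 with scaffold coordinates were left out. Strand of 96.2% of 19821 protein-coding genes came from GENCODE release 44 by name. Tiles were consecutive windows of 1073 bp (1294204 near, 1529496 distant). Group differences were tested by two-sided exact permutation over the 20 assignments of libraries, and differences within libraries by exact sign-flip permutation. P-values were adjusted by Benjamini-Hochberg over 9 tests, and the code was tested on simulated data. With nothing to say which cultures the replicates came from, p-values measure the spread between these libraries. Genes were named by rule (up to 20 with a peak in all active lists, up to 10 distant ones with a peak in most lists, and every listed Pol III or Pol II small RNA gene with a peak), and others are marked as chosen after their values were seen. The members, lists and tests were chosen with earlier results of these data known. Alternatives changed the peaks admitted, the flank, the overlap, the distance, the tiles, the counted unit and the libraries. Python 3.11.15, numpy 2.4.6 and pandas 2.3.3 were used.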

Additional observations from a re-analysis of the deposited data

Results flagged for a closer look

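Mitochondrial tRNA genes were outside every comparison, since the members lay on chromosomes 1 to 22 and X. In active replicate 3, the list with the most peaks, 5 of the 22 mitochondrial tRNA gene regions held a peak, while none did in the other 5 lists. These 5 regions were reached by 2 peaks, of which 1 touched a tRNA gene itself. Both peaks were weak, with a fold enrichment of 1.22 in each and a −log10 p of 3.96 and 3.85. The signal rests on 1 library, and its cause was not tested.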

How the results depend on the processing

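Of 189 values under an alternative, 162 counted as the same. They kept their direction and their side of an unadjusted p of 0.05 or, for counts, stayed within 1.5 times the reported count. A further 16 kept direction but missed that p, 3 changed sign, and 7 counts moved further. The difference in near genes between the arms was 0 points with lists of equal length. Exact permutation p cannot go under 0.1 for differences between the arms, nor under 0.0625 for fold enrichment over at most 5 libraries. Their side of 0.05 was therefore fixed in advance. Values counted as the same include large falls, such as from 3.26 to 0.0777 points over all tRNA genes with lists of equal length. The 3 signs concern the near to distant gap between the arms, which was −0.109 points with lists of equal length, −0.849 without active replicate 3 and −0.578 without replicate 3 of both arms, against 1.88 as reported. It was between −0.849 and 3.61 when single libraries were left out. The gap between near and distant genes over all libraries was 3.996 to 5.78 points, and that between near genes and tiles 3.90 to 5.53 points, when 1 library was left out, and both then had an exact permutation p of 0.0625, the smallest that 5 libraries allow. Without replicate 3 of both arms they were 3.78 and 3.76 points (p = 0.125, exact permutation). The count of genes found in every active list and in none of the inactive ones was 0 with lists of equal length, 0 at a common −log10 p of at least 6, 1 at a −log10 q of at least 2, 1 when 50% of the region had to be covered, and 3 to 9 when single libraries were left out. The count in all 6 lists was 2 with 50% covered and 2 as loci. Counting near a lncRNA gene as near, and all listed starts of the RefSeq promoter table in place of 1 per gene, were chosen after seeing the data and moved no value across an unadjusted p of 0.05, but the former took the near to distant gap to 2.66 points and the near genes against tiles to 3.01 points. Weighting near tiles by distance class, also added later, took the latter to 3.66 points. The loci alternative was not run against tiles or gene starts, because a locus is longer than a tile.

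Aliquots were matched per the labels, but no label ties the replicate numbers to a shared lysate. Same-numbered libraries had correlations of their deviations of 0.02, −0.002 and −0.02 in peak presence over all RefSeq gene regions. Active replicate 1 correlated best with inactive replicate 3 (0.02), and the numbers were not used as pairs. These correlations, over 3 libraries per arm, cannot show whether libraries shared a lysate. With a replicate block over the 3 numbers the 2 gaps were 5.28 and 5.10 points, with p = 0.25 in the exact sign-flip permutation test, the smallest that 3 pairs allow.

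Depth is unknown, and the number of peaks per list differs between the arms. With lists of equal length the arms differed by 0.0777 points over all tRNA genes, against 3.26 as reported, and pThr4 at genes below what a list admits cannot be seen.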
